A study of Papio anubis with 40 samples.

Results

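miR-126-3p and miR-126-5p are the mature microRNAs cut from the opposite arms of the miR-126 hairpin. They were taken by name, with the species prefix removed, as 2 of the 2731 rows of the deposited microRNA count table. Of those rows 689 had a count in any library and 318 were abundant enough to be tested, both arms among them, and 0 rows join either arm with another name. The table covers 40 plasma libraries from 8 olive baboons (Papio anubis), all given endometriosis by laparoscopic transfer of menstrual tissue into the abdomen. Each baboon was bled before inoculation (month 0) and at months 3, 6, 9 and 15, which gives 8 libraries a month, and every animal received the same procedure and is labelled as having had no treatment. Uninoculated animals were not analysed here, and the effects of inoculation, ageing, sample storage and the order of library numbers, which follows month within each baboon, cannot be told apart. The labels give 0.5 mL of plasma per sample, whereas the design text speaks of serum. The question addressed is whether circulating microRNAs changed from the level before inoculation.

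The miR-126 hairpin lies in an intron of EGFL7, a gene of the endothelium, and miR-126 is among the microRNAs most typical of endothelial cells. It is also abundant in platelets, so plasma can receive it from the vessel wall and from blood cells. miR-126-3p represses SPRED1 and PIK3R2, which restrain signalling downstream of VEGF, the main growth factor of blood vessels. miR-126-5p, the other arm, represses DLK1 in mouse endothelium and is loaded and functional in its own right. In a plasma library, the number of cells that released a microRNA and the amount each released cannot be told apart.

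Both arms were among the abundant microRNAs of every library. Counts of miR-126-3p ran from 27559 to 420061 with a median of 79793.5, and counts of miR-126-5p from 16465 to 175762 with a median of 44600. Library totals ran from 696873 to 5824111 with a median of 1629264.5. miR-126-3p therefore made up 1.34% to 11.3% of a library (median 5.88%), and miR-126-5p 0.777% to 6.97% (median 3.22%). The lowest share of miR-126-3p, in the month 9 library of PA8001, had a 95% Clopper-Pearson interval of 1.33% to 1.35%. The highest, in the month 6 library of PA8835, had an interval of 11.2% to 11.4%. Counting error is thus far below the differences between libraries, although these intervals cover counting error only and counts are not independent molecules.

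By rank within a library, miR-126-3p lay between position 1 and position 9 (median 4). It was the most counted microRNA in 1 library, that of PA8872 at month 15, and among the 5 most counted in 29 of 40. miR-126-5p ranked between 4 and 15 (median 9) and was among the 10 most counted in 31 libraries. miR-126-3p exceeded miR-126-5p in all 40 libraries.

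The PA8001 library of month 9 stood apart, since the hepatocyte microRNA miR-122-5p took 78.6% of its counts against a median of 4.90% over all libraries. Its low shares of both arms (1.34% and 0.777%) go with that excess. After TMM scaling, which sets libraries on a common scale from the bulk of their microRNAs, it held 37469 CPM (counts relative to the scaled library total) of miR-126-3p. All CPM values below are TMM-scaled. In other libraries of PA8001, miR-122-5p took 52.9% of the counts at month 0, 40.2% at month 3, 51.0% at month 6 and 10.6% at month 15. Over the 8 baboons it took 0.969% to 52.9% at month 0 (median 3.36%) and 0.467% to 14.1% at month 15 (median 5.81%). The month 15 library of PA8872 had the lowest haemolysis index, the log2 CPM of the red cell microRNA miR-451a minus that of miR-23a-3p/23b-3p (counted jointly), at -3.43 against a median of -0.18. The month 15 result of miR-126-3p and the values of the haemolysis index are given with and without the PA8001 month 9 and PA8872 month 15 libraries.

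At month 0, miR-126-3p stood at 36694 CPM in PA8914, 37926 in PA8872, 40722 in PA8915, 42751 in PA8001, 45024 in PA8912, 46837 in PA8003, 46883 in PA8835 and 92465 in PA8873. PA8873 was apart from the other 7 baboons, which lay close together. At month 15 the values were 50913 CPM in PA8915, 59320 in PA8914, 65345 in PA8003, 79770.5 in PA8872, 85189 in PA8001, 87478 in PA8835, 101471 in PA8912 and 107196 in PA8873. Every baboon was higher at month 15 than at its own month 0, and all month 15 libraries lay above 7 of the 8 month 0 libraries, but because of PA8873 the groups overlapped.

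Between these ends the levels of miR-126-3p were mixed. At month 3 they ran from 36322 to 90233 CPM with a median of 64662, and at month 6 from 33422 to 106086 with a median of 46353. At month 9 they ran from 24299 to 77893 CPM with a median of 57830. The lowest value of all belonged to PA8003 at month 9, and PA8835 at month 6 nearly reached the highest, that of PA8873 at month 15. Single animals took different courses: PA8872 went from 37926 CPM at month 0 to 90233 at month 3, whereas PA8912 stayed between 36322 and 48285 until month 9 and then reached 101471.

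miR-126-5p ran lower and changed less evenly. At month 0 it stood at 19187 CPM in PA8914, 19229 in PA8872, 20190 in PA8835, 20588 in PA8001, 28332 in PA8915, 29233 in PA8912, 29909 in PA8873 and 35064 in PA8003. At month 15 it stood at 17661 CPM in PA8914, 29242 in PA8873, 31922 in PA8003, 33864 in PA8835, 33920 in PA8915, 38698 in PA8912, 49358 in PA8872 and 51916 in PA8001. The groups overlapped, with PA8914 at month 15 below every month 0 library. The medians at months 3, 6 and 9 were 29883, 24701 and 24036 CPM, and the values there ran from 13238 CPM (PA8873, month 6) to 57666 (PA8835, month 6).

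**Figure D1:**
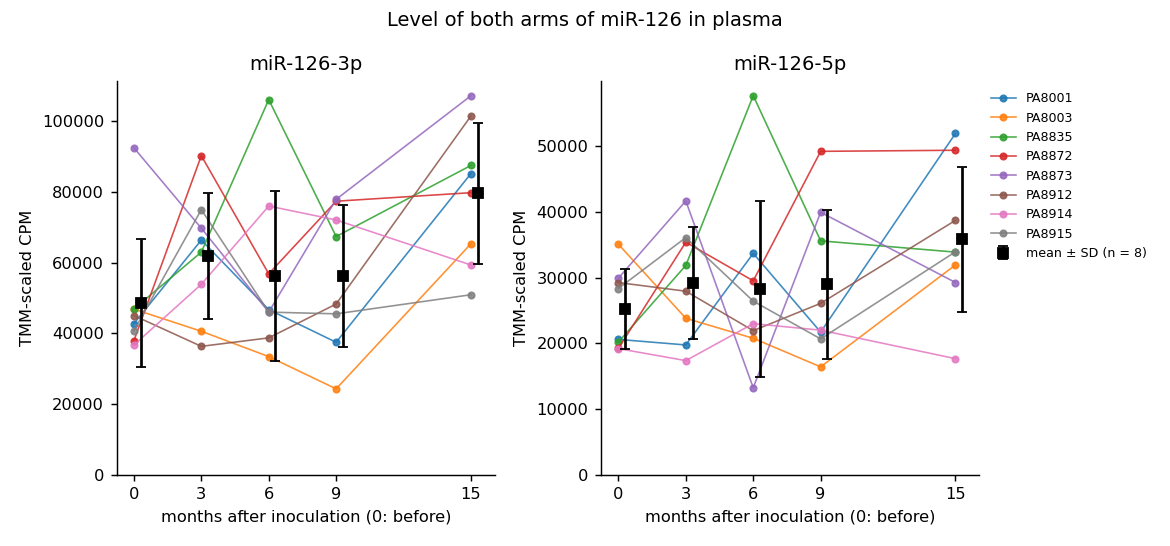
TMM-scaled CPM of miR-126-3p and miR-126-5p against month since inoculation, with a line for each of the 8 baboons and the mean with its SD in black. For miR-126-3p the mean is 48663 CPM at month 0 and 79585 at month 15 with the baboons crossing between, and for miR-126-5p it is 25217 and 35823.

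miR-126-3p rose between month 0 and month 15. The mean was 48663 ± 18107 CPM (SD, n = 8) at month 0 and 79585 ± 19895 at month 15. In edgeR's quasi-likelihood test, fitted to all libraries with month and baboon as terms, the log2 fold change was 0.72 (SE 0.213, 1.65-fold) with a Benjamini-Hochberg adjusted p of 0.0448. Of the 318 rows tested, 13 (4.09%) passed the threshold of 0.05 in this comparison, 8 higher and 5 lower, and miR-126-3p was rank 13 by p. The median log2 change of all tested rows was 0.11. Under the upper-quartile scaling that median was -0.0079, and miR-126-3p then changed by 0.62 with an adjusted p of 0.0867.

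The same comparison taken from the paired values gave a mean log2 change of miR-126-3p of 0.73 ± 0.36 (SD, n = 8), with a 95% interval of 0.43 to 1.03. It was higher in 8 of 8 baboons, from 0.21 in PA8873 to 1.17 in PA8912, and the exact two-sided sign-flip test gave p = 0.00781, the smallest that 8 pairs allow (adjusted p = 0.0469 over the 6 comparisons of this arm). Taken as a plain share of all counts, without scaling factors, the mean log2 change was 0.64 ± 0.53 and 7 of 8 baboons were higher (exact sign-flip p = 0.0156, not adjusted over the comparisons). The exception was PA8873, in which the share went from 10.4% to 9.69%. In edgeR with library totals alone as the scale, the log2 change was 0.65 and did not pass (adjusted p = 0.305).

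For miR-126-5p the month 15 difference did not pass. The mean was 25217 ± 6138 CPM (SD, n = 8) at month 0 and 35823 ± 10995 at month 15, and edgeR gave a log2 fold change of 0.45 (SE 0.235, 1.37-fold) with an adjusted p of 0.399. The paired change was 0.48 ± 0.61 (SD, n = 8), with 5 of 8 baboons higher (exact sign-flip p = 0.0703, adjusted p = 0.359). PA8872 and PA8001 had the highest changes, 1.36 and 1.33 on the log2 scale, and PA8003, PA8914 and PA8873 were at -0.14, -0.12 and -0.033.

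**Figure D2:**
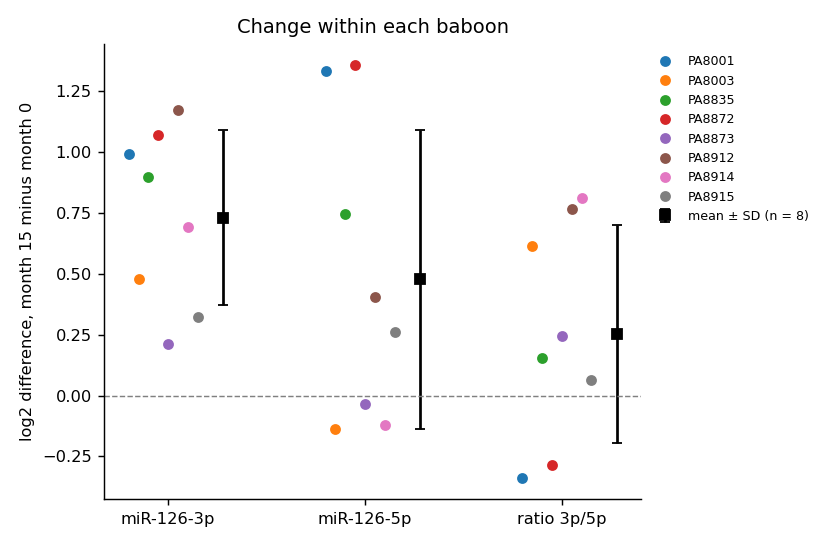
Log2 change from month 0 to month 15 in each baboon for miR-126-3p, miR-126-5p and their ratio, each point a baboon and the black square the mean with its SD. All 8 points for miR-126-3p lie above 0, from 0.21 to 1.17, whereas miR-126-5p and the ratio have points on both sides.

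The month 15 call for miR-126-3p lay close to its threshold. Over 21 other settings, its log2 change stayed above 0 in all 21 and ranged from 0.57 to 0.88, while the adjusted p ranged from 0.0308 to 0.305 and passed in 3 (DESeq2, limma-voom, and edgeR without PA8915). Without PA8872's month 15 library edgeR gave 0.66 (adjusted p = 0.0708), and without PA8001's month 9 library 0.65 (adjusted p = 0.0666). Leaving out any of the 7 baboons other than PA8915 also took the adjusted p of edgeR above the threshold, to between 0.0530 and 0.168. For miR-126-5p none of the 21 settings passed (log2 change 0.30 to 0.68, adjusted p 0.176 to 0.945).

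**Figure D3:**
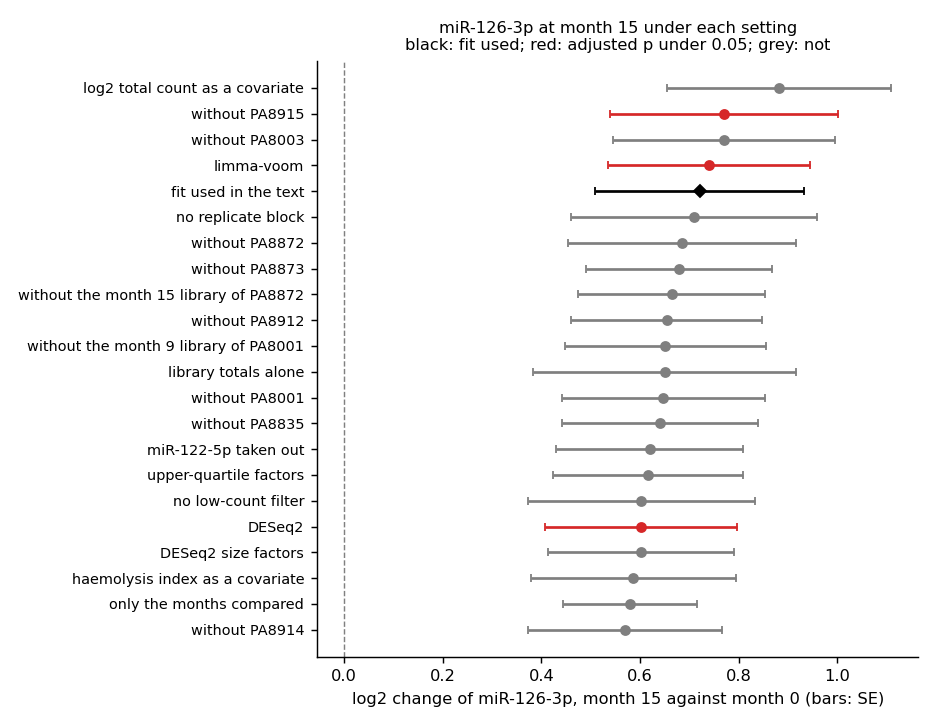
Log2 change of miR-126-3p from month 0 to month 15 under the fit used (black) and each other setting, with bars for the SE, red where the adjusted p was under 0.05 and grey where it was not. All estimates lie between 0.57 and 0.88, and 3 of the 21 other settings are red.

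Earlier months gave no call for either arm. edgeR gave log2 changes of miR-126-3p from month 0 of 0.34 (SE 0.213) at month 3, 0.18 (SE 0.214) at month 6 and 0.16 (SE 0.213) at month 9, with adjusted p of 1.00, 0.990 and 1.00. In each of these months 5 of 8 baboons were higher than at their own month 0. For miR-126-5p the log2 changes were 0.16 (SE 0.234), 0.11 (SE 0.236) and 0.13 (SE 0.235). These comparisons share the month 0 libraries. In none of the 3 months did any of the 318 rows pass in edgeR (0%), with 5, 11 and 11 rows at an unadjusted p under 0.05, and at each month DESeq2 called 1 row.

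Comparisons that do not rest on month 0 alone were also without a call for miR-126. Month 15 against month 9 gave a log2 change of 0.56 (SE 0.213) for miR-126-3p, with 7 of 8 baboons higher, but an adjusted p of 0.231 in edgeR, and 0.32 (SE 0.235, adjusted p = 0.540) for miR-126-5p. Of the tested rows 4 (1.26%) passed there, 0 higher and 4 lower. Late months (9 and 15, averaged) against early ones (3 and 6) gave 0.18 (SE 0.150) for miR-126-3p and 0.16 (SE 0.165) for miR-126-5p, with an adjusted p of 0.985 in edgeR for each. No row passed in that comparison (0%), with 16 at an unadjusted p under 0.05 and 2 called by DESeq2. Tested over all months together, miR-126-3p had an adjusted p of 0.366 and miR-126-5p of 0.994, with 3 rows (0.943%) past the threshold of edgeR.

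Ordered by mean log2 level, the months ran 0, 9, 6, 3 and 15 for miR-126-3p and 0, 6, 9, 3 and 15 for miR-126-5p. No step between neighbours in either order passed the threshold, with exact sign-flip p adjusted over the 4 steps of 0.500 to 1.00 for miR-126-3p and 0.859 for each step of miR-126-5p. The order came from these same values, so the pairs tested were not set beforehand. Month 15 was a baboon's highest month for miR-126-3p in 4 of 8 animals and its lowest in 0, and month 0 was the lowest in 4. For miR-126-5p month 15 was the highest in 3 animals and month 0 the lowest in 2.

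Baboons differed from each other in miR-126-3p and in the ratio of the arms. After month means were removed, 40.1% of the sum of squares of log2 miR-126-3p lay between baboons, where exchanging libraries at random would give 20% on average (permutation test within months, one-sided, adjusted p = 0.0472 over 3 measures). For miR-126-5p the share was 26.7% (permutation adjusted p = 0.228), and for the ratio 45.7% (permutation adjusted p = 0.0346). The SD between baboon means was 0.31 for log2 miR-126-3p, 0.26 for miR-126-5p and 0.30 for the ratio, against within-baboon SDs of 0.42, 0.47 and 0.37. With library totals alone as the scale, the share for miR-126-5p was 46.0% (permutation adjusted p = 0.0153). Without PA8003 the shares were 30.5% for miR-126-3p and 40.6% for the ratio, and without PA8914 they were 44.9% and 32.4%, none of them past the threshold. The miR-126-3p value also missed it without PA8001 (41.3%), PA8873 (36.3%) or PA8835 (39.0%). Libraries are numbered baboon by baboon, so animal and library order cannot be told apart.

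The arm ratio compares counts within a library and needs no scaling. miR-126-3p outnumbered miR-126-5p by 1.30 to 3.67 times, with a median of 1.92, so that miR-126-5p made up 21.4% to 43.5% of both arms together (median 34.3%). On the log2 scale the ratio averaged 1.03 ± 0.43 (SD over 40 libraries), against an SD of 0.0088 that counting alone would give. The lowest ratio was in PA8912 at month 3, with 72709 counts of miR-126-3p and 55893 of miR-126-5p. The highest was in PA8873 at month 15, with 318887 and 86989.

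Across animals the mean log2 ratio ran from 0.69 in PA8003 to 1.55 in PA8914, with 1.40 in PA8873, 1.07 in PA8835, 0.96 in PA8001, 0.92 in PA8872 and 0.82 in both PA8912 and PA8915. Within an animal it was not constant, since the distance from its lowest to its highest library was 0.49 in PA8835 and 1.28 in PA8001. PA8914 had a log2 ratio of 0.94 at month 0 and between 1.63 and 1.75 at all later months.

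By month the log2 ratio was 0.92 ± 0.40 (SD, n = 8) at month 0, 1.08 ± 0.47 at month 3, 1.02 ± 0.48 at month 6, 0.95 ± 0.36 at month 9 and 1.18 ± 0.49 at month 15. The change from month 0 to month 15 was 0.25 ± 0.45, with a 95% interval of -0.12 to 0.63 and 6 of 8 baboons higher (exact sign-flip p = 0.164, adjusted p = 0.809 over 6 comparisons). The month 15 changes of the arms are therefore not shown to differ. By baboon the ratio changed most in PA8914, PA8912 and PA8003 (0.81, 0.77 and 0.62), and moved the other way in PA8001 and PA8872 (-0.34 and -0.29). The changes at months 3, 6 and 9 were 0.16 ± 0.56, 0.09 ± 0.42 and 0.03 ± 0.50, with exact sign-flip p of 0.438, 0.539 and 0.883.

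**Figure D4:**
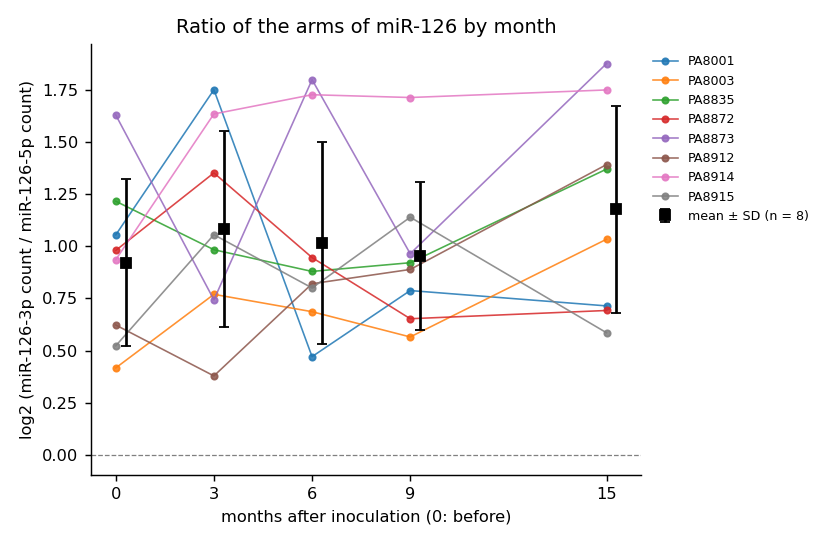
Log2 ratio of miR-126-3p to miR-126-5p counts against month since inoculation, with a line for each of the 8 baboons and the mean with its SD in black. All points lie above 0, between 0.38 and 1.87, and the baboon means run from 0.69 (PA8003) to 1.55 (PA8914).

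Set beside other hairpins, the miR-126 ratio was not at an extreme. Both arms were separate rows with a mean of at least 100 CPM for 11 microRNAs. The SD of their log2 arm ratio over the libraries ran from 0.35 for miR-139 to 0.91 for miR-574 with a median of 0.48, and miR-126 was rank 5 at 0.43. With the mean of each baboon removed, the arms correlated with each other at r between 0.097 and 0.87 (median 0.68, across the same 40 libraries, which share depth and scaling), and those of miR-126 at 0.72. From month 0 to month 15 the log2 ratios changed by -0.85 to 0.56, and in limma 1 of 11 (9.09%) passed. That was miR-30e, whose 5p arm gained on its 3p arm (log2 change of the ratio -0.85, SE 0.240, adjusted p = 0.0121).

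**Figure D5:**
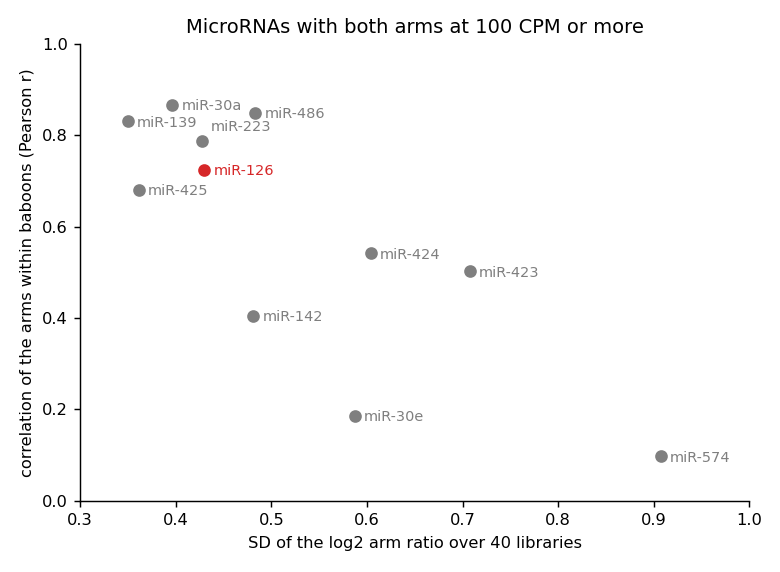
SD of the log2 arm ratio over 40 libraries and the correlation of the arms for the 11 microRNAs with both arms at 100 CPM or more, with miR-126 marked. miR-126 has an SD of 0.43 within a range of 0.35 to 0.91 and a correlation of 0.72 within a range of 0.097 to 0.87.

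Depth, the haemolysis index and miR-122-5p were set beside the month 15 change of miR-126-3p, and none of them differed past the threshold. The log2 total count changed by 0.69 ± 0.91 (SD, n = 8), up in 7 of 8 baboons (exact sign-flip p = 0.0625). The haemolysis index changed by -0.83 ± 1.67, with 3 of 8 baboons higher (exact sign-flip p = 0.0938). PA8872 alone was at -4.83, and over the other 7 the change was -0.26 ± 0.45 (exact sign-flip p = 0.188). For miR-122-5p the paired log2 values gave -0.31 ± 1.70 with 4 of 8 baboons higher (exact sign-flip p = 0.625), while edgeR gave a change of the other sign, 0.13 (SE 0.575, adjusted p = 0.957). With the log2 total count as a covariate, edgeR gave a log2 change of miR-126-3p of 0.88 (adjusted p = 0.0514), and with the haemolysis index 0.59 (adjusted p = 0.165). Over the 40 libraries with baboon means removed, the haemolysis index correlated with miR-126-3p at r = -0.49 and with miR-126-5p at r = -0.47, which is a description of libraries that share their scaling. Without the month 15 library of PA8872 these were -0.56 and -0.45, and without the month 9 library of PA8001 -0.56 and -0.52. Both parts of the index entered these values. With miR-451a itself r was -0.25 for miR-126-3p and -0.30 for miR-126-5p. With miR-23a-3p/23b-3p, the part subtracted, r was 0.30 and 0.23. The part of the haemolysis index or of depth in the miR-126-3p result was not tested beyond these fits.

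Across the 8 baboons, 7 relations between month 15 changes were computed, none with an adjusted p under 0.05. The changes of the arms had r = 0.69 (exact permutation p = 0.0675, adjusted p = 0.318) and rho = 0.67 (exact permutation p = 0.0831). Without PA8001 and PA8872, r was 0.58. With library totals as the scale that relation passed (r = 0.89, exact permutation adjusted p = 0.0436). Both arms are then set against the same unscaled total, and the part of that shared total in the relation was not tested. The change of miR-126-3p had r = 0.64 with the mean of the platelet microRNAs (exact permutation p = 0.0909, adjusted p = 0.318) and rho = 0.60 (exact permutation p = 0.132), and r was 0.24 without PA8912 and PA8915. With the haemolysis index r was -0.41 (rho = -0.26, exact permutation p = 0.369 and 0.536), and with miR-122-5p r was -0.44 (rho = -0.40, exact permutation p = 0.263 and 0.327). With the log2 total r was 0.05 (rho = 0.071, exact permutation p = 0.905 and 0.882), and 0.51 without PA8873 and PA8915. For the arm ratio r was 0.18 with the log2 total (rho = 0.31, exact permutation p = 0.680 and 0.462) and 0.32 with the haemolysis index (rho = -0.29, exact permutation p = 0.555 and 0.501), the last of which was -0.77 without PA8835 and PA8872.

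Platelets hold much miR-126, so the other platelet microRNAs were set beside it. Of 12 tested, 0 passed at month 15 in edgeR, where 13 (4.09%) of all 318 rows did. Of the 12, 9 had a log2 change above 0, and the list median was 0.34, against 0.11 over all rows. miR-221-3p, also on the endothelial and angiogenesis lists below, was at 0.86 (SE 0.276, adjusted p = 0.0792). miR-223-3p, abundant in platelets and myeloid cells, was at 0.74 (SE 0.306, adjusted p = 0.275), miR-191-5p at 0.49 (adjusted p = 0.495) and miR-197-3p at 0.44 (adjusted p = 0.336). Their summed level was 24677 to 53355 CPM at month 0 and 29334 to 88858 at month 15, and their mean log2 level changed by 0.38 ± 0.48 (SD, n = 8), up in 7 of 8 baboons (exact sign-flip p = 0.0547). miR-24-3p of this list was at 0 in 27 libraries but reached 43201 counts elsewhere, and the summed and mean levels of the list include it. Relative to the mean of the list within each library, log2 miR-126-3p went from 6.46 ± 0.63 to 6.81 ± 0.48, a difference of 0.35 ± 0.37 with 7 of 8 baboons higher (exact sign-flip p = 0.0391). Without the 3 list members of lowest level the difference was 0.51 (exact sign-flip p = 0.0156). Over the list members counted in every library, which leaves miR-24-3p out, it was 0.45 (exact sign-flip p = 0.0391). That setting was chosen after seeing the data. The call over the whole list is lost with a smaller prior count (exact p = 0.0703), or without PA8001, PA8003, PA8872, PA8914 or PA8915 (0.29 to 0.36, exact p = 0.0781 in each case). The part of platelets in the rise of miR-126-3p was not tested.

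The other endothelial microRNAs had changes on both sides of 0. Of 13 tested, 0 rose and 1 fell at month 15 in edgeR, against 8 (2.52%) and 5 (1.57%) of all 318 rows, 6 had a log2 change above 0 and the median was -0.17. The member that fell was miR-100-5p, of the miR-99 family, at -1.16 (adjusted p = 0.0343), and its relative miR-99a-5p was at -0.85 (adjusted p = 0.0712). miR-221-3p, which restrains KIT in endothelial cells and is also on the platelet list, was at 0.86 (SE 0.276, adjusted p = 0.0792). miR-125b-5p was at -0.33 (adjusted p = 0.664). Their summed level ran from 4937 to 13303 CPM at month 0 and from 3431 to 12836 at month 15. Set against month 9 instead, 0 of the 13 rose and 2 fell at month 15 in edgeR, where 4 (1.26%) of all 318 rows fell. In that comparison 6 of the 13 had a log2 change above 0.

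Among 24 tested microRNAs tied to angiogenesis, 1 rose and 0 fell at month 15 in edgeR, near the 4.09% called over all rows. In this list 16 had a log2 change above 0 and the median was 0.37. The member that rose was miR-210-3p, the main microRNA induced by hypoxia, at 1.34 (adjusted p = 0.000958 in edgeR). miR-503-5p and miR-155-5p were each at 0.37 without a call.

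The blood cell and liver lists are described by their counts, with no test of a list. Of 7 myeloid microRNAs 1 rose (2.52% of all rows did), miR-223-5p at 0.83 (adjusted p = 0.0434 in edgeR), with a list median of 0.37 and a summed level of 8966 to 14948 CPM at month 0 against 11991 to 23175 at month 15. Of 6 lymphocyte microRNAs 2 fell (1.57% of all rows did), miR-181a-5p at -0.65 (adjusted p = 0.0348) and miR-342-3p at -0.81 (adjusted p = 0.0448), and the median was -0.40. None of 8 erythrocyte microRNAs passed (4.09% of all rows did), and the median was -0.23. Their summed level ran from 197334 to 545978 CPM at month 0 and from 98199 to 655969 at month 15. None of 5 liver microRNAs passed either (median -0.22). At months 3, 6 and 9 no member of any of the 7 lists passed in edgeR. The part of these cell types in the miR-126-3p result was not tested.

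The rows whose levels followed miR-126-3p most closely, by Pearson correlation of log2 CPM over the 40 libraries with baboon means removed, were miR-1306-5p (r = 0.69), miR-210-3p (0.68), miR-223-5p (0.68), miR-30e-5p (0.66) and miR-187-3p (0.65), against a median of 0.054 over 316 rows. Their log2 changes from month 0 to month 15 were 0.28, 1.34, 0.83, 0.98 and 1.05, in the same order. Since these libraries were also the ones used to choose the rows, those changes are given as a description only. The most opposed was miR-100-5p (r = -0.57). Nearest to miR-126-5p were miR-130a-3p (0.66), miR-889-3p (0.64), miR-1306-5p (0.60), miR-340-5p (0.57) and miR-369-3p (0.54), against a median of 0.031. Of these, miR-369-3p averaged 4.73 CPM, near the level that a count of 0 allows. Only miR-1306-5p stood among the 5 nearest of both arms, although the arms correlated with each other at 0.72.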

How the data were processed

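Small RNA from plasma was extracted with the MagMAX kit and sequenced on a NovaSeq X after adapter ligation, with molecular identifiers added at cDNA synthesis, per the labels' protocols. The authors deposited unnormalized counts, with 1 row per mature microRNA name or per set of joined names. The aligner and the database were not given in the sources used here. Whether reads or identifiers were counted is not stated either. The submitters' processing notes name R 4.5.0, edgeR and limma. No genome build is named, so no coordinates are printed. Joined names cannot be divided, and neither arm of miR-126 is in a joined row.

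filterByExpr, with months as groups, a minimum count of 10 and a minimum total of 15, kept 318 rows with 99.98% of all counts. A count of 0 allows up to 3 counts, or 0.515 to 4.30 CPM depending on the library. The main test was edgeR's two-sided quasi-likelihood test with TMM factors (R 4.3.3, edgeR 4.0.16, with limma 3.58.1 for arm ratios), in a fit of all 40 libraries with month and baboon as terms. The pairing comes from the labels, which give 1 library per baboon and month. P-values were adjusted by Benjamini-Hochberg over the tested rows with a threshold of 0.05. DESeq2 1.42.0 was an alternative. Log2 CPM used a prior count of 2 and the arm ratio a prior count of 0.5. Paired differences had an exact sign-flip test over 256 patterns, and differences between baboons a permutation test with 100000 resamples (Python 3.11.15, numpy 2.4.6, scipy 1.17.1, pandas 2.3.3). The edgeR fit was also run on simulated counts without differences between baboons, and the outcome is not reported here. None of the libraries were identical (0 pairs).

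The members and the lists (platelet, endothelial, erythrocyte, liver, myeloid, lymphocyte and angiogenesis) were chosen with earlier results of these data known. The microRNAs named are both arms, the 5 rows nearest to each arm by correlation, in each list up to 4 members of smallest p over all months and any member past the threshold, the microRNAs of the haemolysis index, miR-122-5p, and the arm pairs with the extreme SDs. miR-30e was named after its values were seen. The alternatives tried were other scaling factors, no filter, DESeq2, limma-voom, covariates, no replicate block, and leaving out a baboon or a library.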

Additional observations from a re-analysis of the deposited data

Results flagged for a closer look

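The month 0 level of miR-126-3p in PA8873 stood apart from the other 7 baboons. Its log2 CPM was 16.50, while the others lay between 15.16 and 15.52, so that its gap to the nearest value was 0.735 of the whole range (the critical value for 8 samples is 0.526). It also had the smallest rise of miR-126-3p at month 15, 0.21 on the log2 scale. Without PA8873, the log2 change of miR-126-3p at month 15 was 0.68 in edgeR (adjusted p = 0.0530). Of 27 groups checked 1 was picked out in this way, and chance picks out about 1 in 20.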

How the results depend on the processing

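Counts of both arms were far above the floor in every library. The cause of the losses of the month 15 call below was not tested. The log2 change of miR-126-3p from month 0 to month 15 (0.72, edgeR) no longer passed with DESeq2 size factors (0.60), upper-quartile factors (0.62), library totals (0.65), no filter (0.60), miR-122-5p taken out (0.62), only the months compared (0.58), the haemolysis index (0.59) or the log2 total (0.88) as a covariate, and without the month 15 library of PA8872 (0.66) or the month 9 library of PA8001 (0.65). With no replicate block, that is unpaired, it was 0.71 (adjusted p = 0.150). With 1 baboon left out at a time it ranged from 0.57 to 0.77.

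The 13 rows past the threshold at month 15 became 3 with the haemolysis index, 4 with library totals, 2 with the log2 total, 8 with miR-122-5p taken out, 2 with no replicate block, 0 with only the months compared, 4 without the PA8872 library, and 2 to 20 without a baboon. In the other comparisons the counts moved too: from 3 to between 0 and 15 for any month, from 4 to between 0 and 13 for month 15 against month 9, from 0 to at most 3 for late against early, and from 0 to at most 2 at months 3, 6 and 9, where DESeq2 called 1 and no filter 2, 1 and 2.

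Directions that changed belonged to small differences without a call. With library totals, miR-126-3p at month 9 was -0.14, and miR-126-5p was -0.012 at month 3 and -0.16 at month 9, where upper-quartile factors gave -0.013. Without a baboon, miR-126-3p at month 6 ranged from -0.016 to 0.33, miR-126-5p at month 6 from -0.14 to 0.26 and at month 9 from -0.033 to 0.32. The arm ratio ranged from -0.0057 to 0.19 at month 6, from -0.075 to 0.13 at month 9 and from -0.059 to 0.086 for late against early. The share of the spread between baboons ranged from 30.5% to 44.9% for miR-126-3p and from 32.4% to 54.2% for the ratio, and for miR-126-5p it was 46.0% with library totals. The level relative to platelet microRNAs ranged from 0.29 to 0.43 without a baboon, was 0.33 with a prior count of 0.5 and 0.51 without the 3 members of lowest level, and was 0.45 over list members counted in every library, a setting chosen after seeing the data. The correlation of the miR-126-3p change with the log2 total ranged from -0.42 to 0.77 and was -0.16 with library totals, which took the correlation between the arms from 0.69 to 0.89. Leaving the PA8872 or PA8001 library out of the haemolysis index values (a change of -0.26 without PA8872) was also chosen after seeing the data. That of the ratio with the haemolysis index ranged from -0.72 to 0.53. Among arm pairs of at least 10 CPM the median SD of the log2 ratio was 0.82.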
